A study of Mus musculus with 20 samples.

Results

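Collagen chains are the genes of the count table whose symbol is Col, a number, the letter a, and a second number, such as Col1a1. This rule uses names only and no measured value. It found 31 genes of the 15956 listed, of which 8 encode fibrillar chains, 6 encode basement membrane chains, and 17 encode other chains. The other chains comprise 5 fibril-associated chains (FACIT), 4 beaded filament chains, 2 short-chain network chains, 2 multiplexins, 3 transmembrane chains, and 1 anchoring fibril chain. The mouse annotation holds 44 symbols of this pattern, and the 13 that the table does not list are Col2a1, Col6a4, Col6a5, Col9a1, Col9a2, Col9a3, Col10a1, Col11a1, Col17a1, Col19a1, Col24a1, Col26a1, and Col28a1.

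Collagens are the main structural proteins of the space between cells. Each molecule is built from chains that wind around each other, and the chains of one molecule can be identical or come from different genes. Fibrillar collagens assemble into the tension-bearing fibers of the cardiac interstitium, in which type I is the stiff and abundant component and type III forms finer fibers. Type IV collagen forms the sheet-like network of the basement membrane that surrounds capillaries and cardiomyocytes. In the heart, fibroblasts are the principal source of fibrillar collagen, and endothelial cells, pericytes, and cardiomyocytes take part in making basement membranes.

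Gene expression was measured in left ventricular tissue of 20 mice, with 5 mice in each of 4 diet groups. Casein made up 20% of the normal protein (NP) diet and 5% of the low protein (LP) diet. The high-fat (HF) diet contained 60% fat at 20% casein, and HF + LP combined that amount of fat with 5% casein. According to the study's methods the mice were male and were started on the diets in middle age, and no group is labelled with a transgene or a drug. Age was 18 months in the labels of all mice, whereas the methods place collection earlier. Body weights ranged from 33.3 to 52.3 g in NP and from 56.1 to 60.9 g in HF, with 29.9 to 36.9 g in LP and 41.2 to 56.1 g in HF + LP. The strain was not given in the sources used here. Libraries were made with QuantSeq, a method that sequences 1 fragment at the 3′ end of each transcript, so counts do not scale with gene length. Levels of different chains are set side by side below, although how completely each 3′ end was counted was not checked. Values below are counts divided by TMM-scaled library size (normalized counts) unless a log2 scale is named.

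The promoter of Col3a1 is shown because this chain has the smallest p of the collagen chains when HF is compared to NP. RefSeq promoter windows on GRCm38.p6 were matched by symbol for 25 of the 31 chains, and the line holds the 250 bases before the start of the transcript on the plus strand. Capitals mark matches on either strand to the letters of a TATA box (searched as TATAAA), an NF-Y site (searched as CCAAT), a GC box bound by Sp1 (searched as GGGCGG), and a Smad-binding element (searched as CAGACA), and no match overlaps another here.
Col3a1 promoter, chr1:45311288-45311537: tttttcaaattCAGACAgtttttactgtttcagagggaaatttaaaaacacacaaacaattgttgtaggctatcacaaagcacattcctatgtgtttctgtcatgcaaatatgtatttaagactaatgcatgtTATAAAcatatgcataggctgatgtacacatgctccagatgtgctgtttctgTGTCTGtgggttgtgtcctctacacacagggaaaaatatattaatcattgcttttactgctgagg
The Col3a1 promoter held 1 TATAAA match, at position -117 from the start, and 2 CAGACA matches, at positions -239 and -65, the second on the minus strand. In windows of 300 bases that run 50 bases past the start, TATAAA was present in 3 of the 25 chains (Col3a1, Col11a2, and Col13a1) and in 13.6% of all 32851 promoters. CCAAT was present in 9 chains and in 37.4% of promoters, GGGCGG in 18 chains and in 35.7%, and CAGACA in 7 chains and in 21% of promoters. A match is a description of the letters and not evidence of a bound factor.

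Col4a1 and Col4a2 are shown together because they lie head to head. Col4a1 is transcribed from the minus strand (chr8:11198423-11312826) and Col4a2 from the plus strand (chr8:11312805-11449287), and their first 22 bases overlap. The line gives the plus strand with the 22 bases that belong to both transcripts in capitals and 4 bases on each side.
Col4a1 and Col4a2 shared start, chr8:11312801-11312830: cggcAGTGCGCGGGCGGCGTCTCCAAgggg
Col4a3 and Col4a4 are likewise divergent, with 71 bases between the genes, as are Col4a5 and Col4a6 on chromosome X, with 1308 bases. Among the other chains, Col3a1 (chr1:45311538-45349706) and Col5a2 (chr1:45374321-45503282) are neighbors 24614 bases apart, and Col6a1 and Col6a2 lie 85161 bases apart on chromosome 10.

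Total counts per library ranged from 12559607 to 23331907, and 13991 genes passed the filter on low counts. Of the 31 chains, 26 passed it (8 fibrillar, 6 basement membrane, and 12 other), and 21 of those had a base mean, the mean normalized count over all mice, above 50. The 5 chains that did not pass were Col7a1, Col12a1, Col20a1, Col22a1, and Col25a1, whose base means ranged from 2.84 to 7.58. The library of LP mouse 13 stood apart, since its median correlation with the other LP libraries was 0.908, against 0.944 to 0.979 for every other mouse with its own group. LP mouse 13 was the highest of all 20 mice for 11 of the 26 tested chains, and it also held the highest sum of adipocyte markers (5159) and of atrial cardiomyocyte markers (251380). It was not alone in a high atrial sum. The next were 206396 in HF mouse 1, 89040 in LP mouse 15, and 88042 in HF + LP mouse 3, and the lowest was 1022 in HF + LP mouse 5. The values of LP mouse 13 are therefore given in the text, with values computed without it where they bear on a result.

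Collagen transcripts were a small part of the ventricular libraries, and a few chains made up most of them. In bulk tissue, fewer cells of a type and less RNA per cell cannot be told apart. All 31 chains together took 0.0553% to 0.111% of the counts of a library, and Col4a1, Col4a2, Col1a2, Col3a1, and Col1a1 together took 59.5% to 71% of the collagen counts. Fibrillar chains made up 34% to 46% of collagen counts, basement membrane chains 26.9% to 42.4%, and other chains 21% to 29.3%. Counts of basement membrane and fibrillar chains were therefore of similar size in these libraries, and the single most abundant chain by count was Col4a1 with a base mean of 2266.

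**Figure D1:**
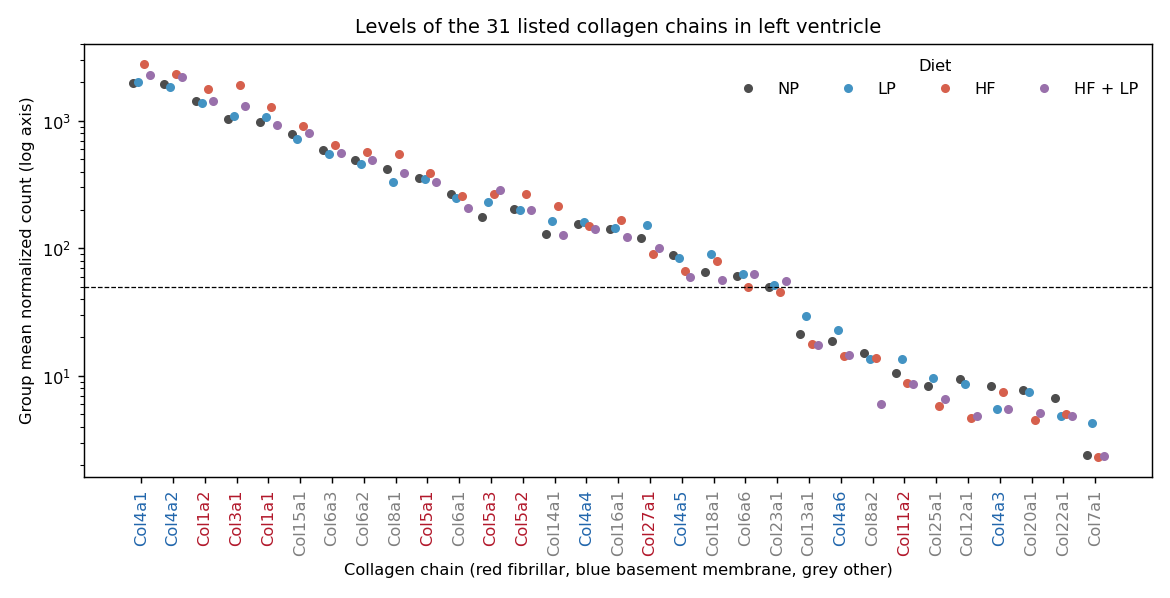
Mean normalized count (log axis) of each of the 31 listed collagen chains in the 4 diet groups, ordered by base mean, with 1 point per group of 5 mice. The dashed line marks a normalized count of 50, and the HF point lies above the NP point for Col4a1, Col4a2, and each of the 3 major fibrillar chains.

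Fibrillar chains differed widely in level. Col1a2 had a base mean of 1501, Col3a1 of 1328, and Col1a1 of 1067, followed by Col5a1 (357.0), Col5a3 (239), Col5a2 (216), Col27a1 (116), and Col11a2 (10.4). Type I collagen is built from Col1a1 and Col1a2 chains. The ratio of Col1a1 to Col1a2 transcripts ranged from 0.451 to 1.32 over the 20 mice. The type V chains Col5a1, Col5a2, and Col5a3, which take part in starting fibrils, lay below the type I and type III chains in every group mean. Col11a2 and Col27a1 are chains best known from cartilage.

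Basement membrane chains fell into an abundant pair and a scarce remainder. Col4a1 and Col4a2, which form the common type IV network, had base means of 2266 and 2073, and their ratio ranged from 0.84 to 1.43. The next chain, Col4a4, had a base mean of 151, Col4a5 of 74.7, Col4a6 of 17.6, and Col4a3 of 6.7. Col4a3, Col4a4, and Col4a5 form the network best known from the kidney filter, and in these hearts Col4a4 exceeded its divergent neighbor Col4a3 in every mouse, by a ratio of 11.5 to 116. The 3′ end of Col4a3 overlaps the listed gene C430014B12Rik on the opposite strand, and whether counting used the strand was not given in the sources used here, so the Col4a3 level is uncertain. The 3′ end of Col4a1 overlaps Gm15418 on the opposite strand over 6081 bases. The count table does not list Gm15418, and the Col4a1 level is uncertain for the same reason.

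Among the other chains, Col15a1 was the most abundant (base mean 806), a multiplexin that sits on the outer face of basement membranes. The type VI chains, which form beaded filaments around cells, followed with Col6a3 at 586, Col6a2 at 503, and Col6a1 at 244, and Col6a6 at 59.1. Col8a1, a short-chain collagen of vessels, had a base mean of 422, and its partner Col8a2 of 12.1. The FACIT chains Col14a1 and Col16a1, which bind the surface of fibrils or link matrix components, had base means of 159 and 143. Col18a1, the multiplexin that gives rise to endostatin, had a base mean of 73.0, and its 3′ end overlaps Slc19a1 on the opposite strand over 8825 bases, so that its counts are uncertain in the same way. The transmembrane chains Col23a1 and Col13a1 had base means of 50.7 and 21.5.

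**Figure D2:**
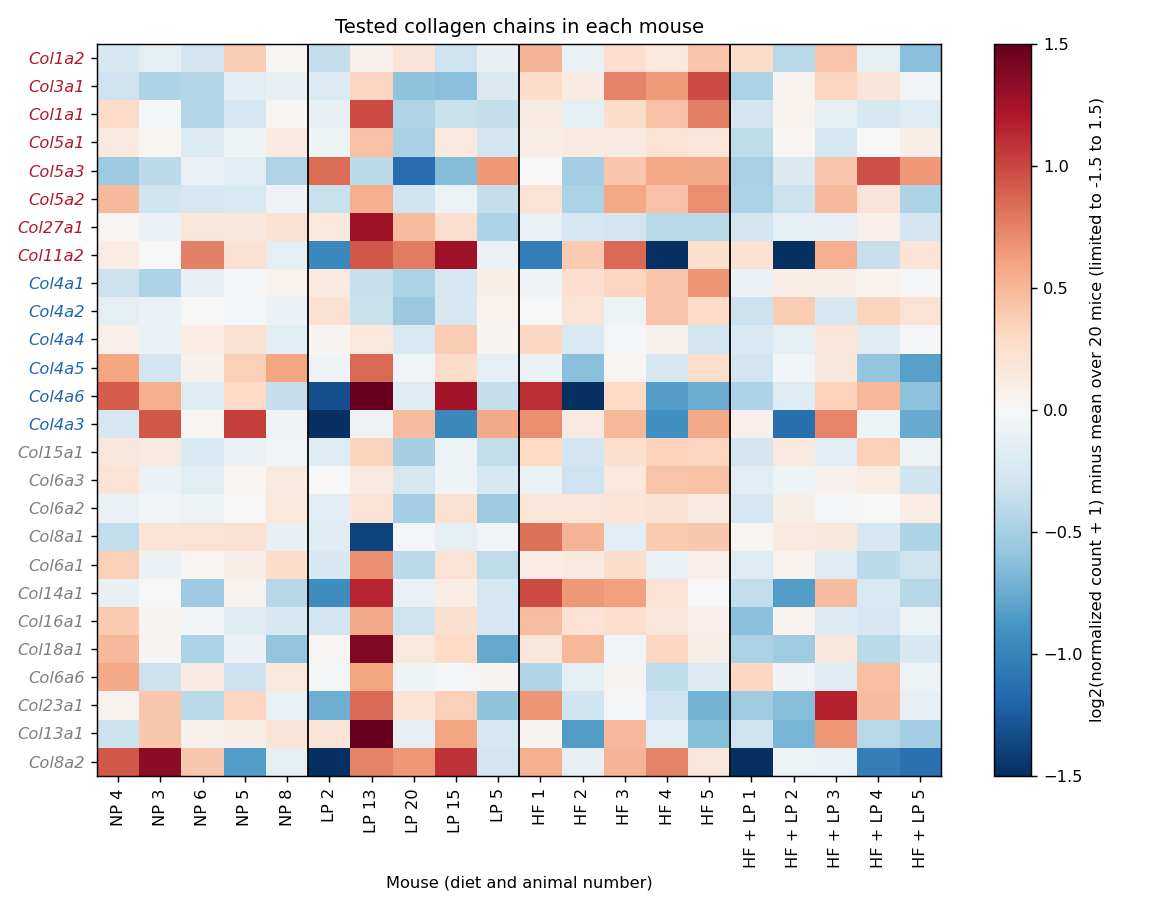
Each cell is log2(normalized count + 1) of a tested collagen chain in 1 mouse minus the mean of that chain over the 20 mice, limited to -1.5 to 1.5, with mice in columns by diet and fibrillar (red), basement membrane (blue), and other chains (gray) in rows. The column of LP 13 is high for many chains and low for Col8a1, and the Col3a1 row is high in all 5 HF mice.

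HF was compared to NP to ask what the high-fat diet did at normal protein. Col3a1, the type III collagen chain, was higher in HF than in NP with no overlap between the groups. Col4a1 of the basement membrane and Col14a1, a FACIT, were higher at an unadjusted p under 0.05. Col27a1 was lower in every HF mouse than in any NP mouse, although its unadjusted edgeR p was 0.076. Of all genes tested, 5.67% did not overlap between these groups. At the study's threshold, an adjusted p under 0.01 with a base mean over 50, edgeR called 0 of the 26 tested chains, while it called 37 of the 13991 genes tested (0.264%). With an unadjusted p under 0.05, 3 chains were higher and 0 were lower (11.5%), against 13.1% of all genes tested (724 higher and 1107 lower). With both directions counted, this share is near the background in the fit to all 20 mice. Fitted to only the HF and NP mice, edgeR gave 10 of 24 chains (9 higher and 1 lower) against 2373 of 13240 genes, and DESeq2 gave 9 of 24 (8 higher and 1 lower) against 2322, so the reading against the background depends on which mice enter the fit. In the fit to all mice, the count of 3 became 2 to 6 when 1 mouse was left out, with 5 without NP mouse 3 or 5, LP mouse 5, or HF mouse 2 or 3, and 6 without LP mouse 13. The log2 fold change was above 0 for 15 chains and below 0 for 11, with a median of 0.17 against -0.0011 over all genes.

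Col3a1 showed the clearest difference of any chain. Its normalized counts were 920.0, 933, 1023, 1138, and 1168 in NP mice and 1382, 1532, 1978, 2114, and 2489 in HF mice. They were 821, 830.2, 1086, 1099, and 1580.0 in LP mice and 912, 1229, 1308, 1448, and 1579 in HF + LP mice. The lowest HF mouse lay above the highest NP mouse, and the highest LP value belonged to LP mouse 13. The means were 1036 ± 114 in NP and 1899 ± 448 in HF (SD, n = 5), a ratio of 1.83 and a log2 fold change of 0.87 (SE 0.19, edgeR adjusted p = 0.0217). Without LP mouse 13, edgeR called Col3a1 (log2 fold change 0.87, adjusted p = 0.00694), as did DESeq2 on all mice (0.90, adjusted p = 0.000835). Over all alternatives tried, its log2 fold change ranged from 0.76 to 1.03 and its adjusted p from 2.57e-05 to 0.0716. Across the genome, 5.67% of the genes tested did not overlap between HF and NP. Among the 26 chains 1 was higher (Col3a1) and 1 lower (Col27a1) without overlap, a share near the background.

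The type I chains were less clear. Col1a1, on chromosome 11 (chr11:94936224-94953042), had normalized counts of 759.7, 865, 1011, 1040.5, and 1251 in NP mice and 938, 1133, 1239, 1389, and 1751 in HF mice. In LP mice they were 754, 801, 814, 954, and 2021, and in HF + LP mice 842, 870.2, 896, 938, and 1065. The HF and NP groups overlapped, 2 HF mice lay above all NP mice, and the highest of all 20 values belonged to LP mouse 13. The log2 fold change of HF to NP was 0.39 (SE 0.23, edgeR adjusted p = 0.512). Col1a2, on chromosome 6 (chr6:4504814-4541544), had normalized counts of 1201, 1246, 1340.4, 1501, and 1901 in NP mice and 1372, 1636, 1749, 1965, and 2086 in HF mice. In LP mice they were 1147, 1179.8, 1360.2, 1530.3, and 1672, and in HF + LP mice 949.7, 1098, 1326, 1781, and 1979.9. The 4 groups overlapped, and the log2 fold change of HF to NP was 0.29 (SE 0.19, edgeR adjusted p = 0.561). The ratio of Col3a1 to Col1a1 transcripts was 1.08 ± 0.21 in NP and 1.48 ± 0.136 in HF (SD, n = 5), and every HF mouse (1.35 to 1.71) lay above every NP mouse (0.818 to 1.32). The ratio was 1.08 ± 0.21 in LP (0.782 to 1.36) and 1.41 ± 0.265 in HF + LP (1.08 to 1.68).

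The minor fibrillar chains had log2 fold changes in both directions, and none passed a threshold. Col5a1 had normalized counts of 306, 337, 361, 386, and 388 in NP mice and 378, 386, 388, 400.4, and 411 in HF mice, with a log2 fold change of 0.14 (SE 0.14, edgeR adjusted p = 0.752). In LP mice they were 253, 288, 338, 389, and 479, with the highest value in LP mouse 13. Col5a2 had 168, 175, 177, 200.2, and 291 in NP mice and 149, 243, 283, 312, and 337 in HF mice, with a log2 fold change of 0.39 (SE 0.24, edgeR adjusted p = 0.534). Its HF values lay both above and below those of NP, and the highest NP value belonged to NP mouse 4. In LP mice Col5a2 had 162, 165, 169, 198, and 303, and in HF + LP mice 149, 151, 167, 239, and 291. The Col5a2 gene contains Gm38211, a listed gene on the same strand, so its reads may be split. Col5a3 had 150.4, 161, 167, 197, and 206 in NP mice and 153, 219.9, 295, 328, and 329 in HF mice, 4 of which lay above all NP mice, with a log2 fold change of 0.59 (SE 0.33, edgeR adjusted p = 0.484).
Col27a1 ran the other way. Its normalized counts were 105, 113, 125, 125, and 130.1 in NP mice and 83.6, 84.4, 90.8, 92.2, and 103 in HF mice. In LP mice they were 80, 124, 131, 155, and 269, and in HF + LP mice 90.7, 91.7, 100.4, 102, and 116. HF and NP did not overlap, LP spread the widest, and the log2 fold change of HF to NP was -0.40 (SE 0.21, edgeR adjusted p = 0.46).

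The 2 abundant basement membrane chains had higher means in HF than in NP, and the log2 fold changes of the other 4 were below 0. Col4a1 had normalized counts of 1613, 1772, 2038, 2195, and 2311 in NP mice and 2135, 2645, 2779.5, 2965, and 3504 in HF mice. LP mice had 1601, 1755, 1848, 2361, and 2459, and HF + LP mice 2085, 2185, 2301, 2382, and 2388. Of the HF mice, 4 lay above all NP mice. The log2 fold change of Col4a1 was 0.50 (SE 0.14, edgeR adjusted p = 0.0773). Col4a2 had normalized counts of 1837, 1915, 1922, 1990.5, and 2055 in NP mice and 1941, 2053, 2347, 2482, and 2743 in HF mice. In LP mice they were 1386, 1613, 1724, 2121, and 2384, and in HF + LP mice 1630.2, 1712, 2362, 2577, and 2662. The Col4a2 groups were closer, with a log2 fold change of 0.25 (SE 0.15, edgeR adjusted p = 0.538). Col4a3, Col4a4, Col4a5, and Col4a6 had log2 fold changes of -0.15, -0.06, -0.40, and -0.39, with adjusted p from 0.52 to 0.944.

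**Figure D3:**
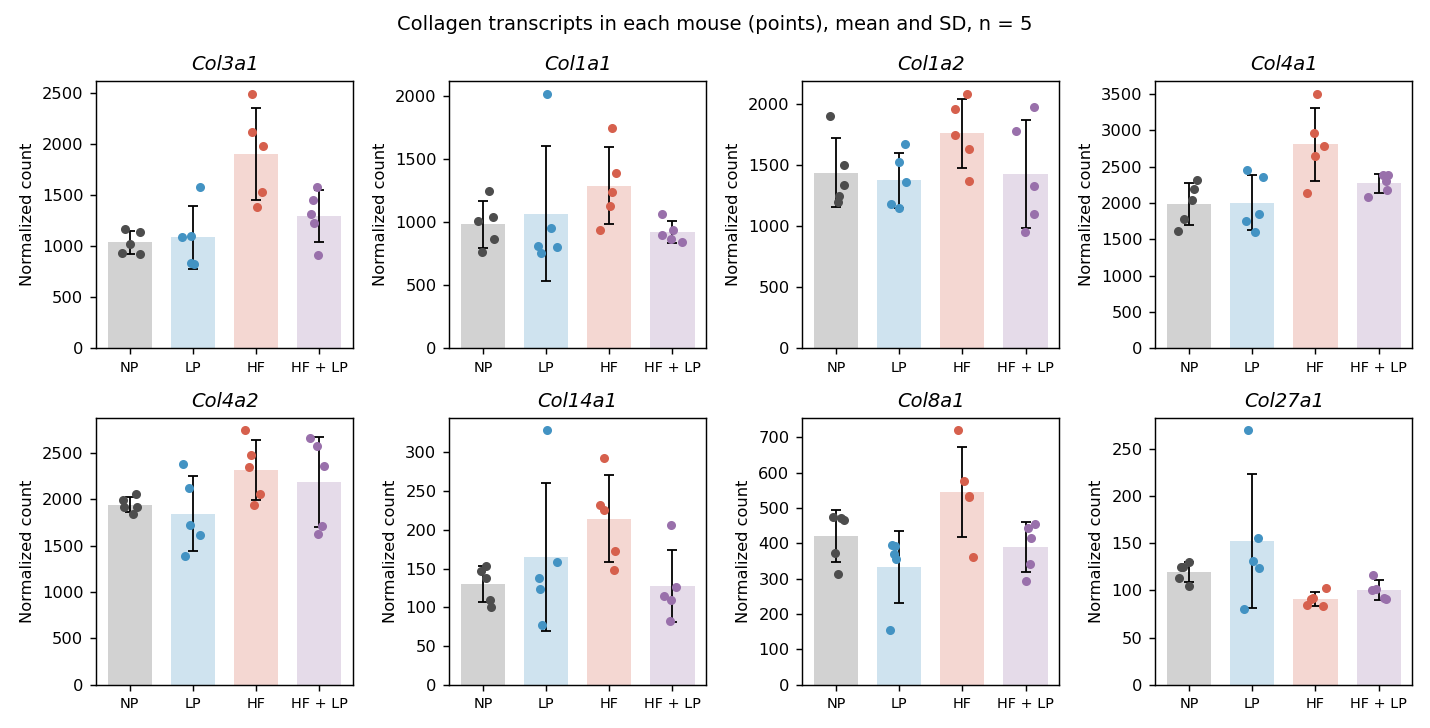
Normalized counts of 8 collagen chains in each mouse (points), with bars and whiskers for the mean and SD of 5 mice per diet, on axes that start at 0. Every HF mouse lies above every NP mouse for Col3a1 and below every NP mouse for Col27a1, and the single high LP point for Col1a1, Col14a1, and Col27a1 is LP mouse 13.

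Among the other chains, Col14a1 was the highest in HF relative to NP. Its normalized counts were 101, 109.7, 137, 147, and 153 in NP mice and 149, 172, 226, 232, and 292 in HF mice. LP mice had 77.2, 123, 138, 159, and 328, and HF + LP mice 82.3, 109, 115, 127, and 206. Of the HF mice, 4 lay above all NP mice, and the highest of all 20 values belonged to LP mouse 13. The log2 fold change of HF to NP was 0.72 (SE 0.30, edgeR adjusted p = 0.292), and DESeq2 fitted to only these 2 groups called it (adjusted p = 0.00967), a setting chosen after the data were seen. Col8a1 had normalized counts of 314, 373, 467, 472, and 476 in NP mice and 362, 532, 535, 576, and 719.6 in HF mice. LP mice had 154, 357, 369, 394, and 396, and HF + LP mice 293, 340.5, 415, 443, and 456. HF mice were mostly above NP mice, with 1 HF mouse inside the NP range, and the log2 fold change was 0.37 (SE 0.22, edgeR adjusted p = 0.51).

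None of the type VI and multiplexin chains passed a threshold between HF and NP. Col6a1 had log2 fold change -0.04 (SE 0.17), Col6a2 0.20 (SE 0.13), and Col6a3 0.13 (SE 0.14), with adjusted p from 0.59 to 0.966. Normalized counts of Col6a2 were 465, 472, 483, 494, and 553 in NP mice and 546, 563, 565, 572, and 583 in HF mice. Of the HF mice, 4 lay above all NP mice for Col6a2. Col6a1 had 226, 243, 256, 289.5, and 307 in NP mice and 224, 252, 259, 265, and 289 in HF mice. Col6a3 had 516, 545, 591, 638, and 667 in NP mice and 467, 542, 649, 779, and 786 in HF mice. All 3 chains, which form the common type VI filament, overlapped between HF and NP. Col15a1 had 675, 745, 770.2, 868, and 894 in NP mice and 648, 938, 976, 990.3, and 1008 in HF mice, with a log2 fold change of 0.21 (SE 0.16, edgeR adjusted p = 0.657). Of the HF mice, 4 lay above all NP mice and HF mouse 2 below all of them. Col18a1 had a log2 fold change of 0.30 (SE 0.30, edgeR adjusted p = 0.762), with 45.2, 49, 64.3, 70.4, and 96.7 in NP mice and 66.4, 72.9, 77.6, 85.4, and 97.5 in HF mice. The other 5 tested chains of this class, Col6a6, Col8a2, Col13a1, Col16a1, and Col23a1, had log2 fold changes from -0.30 to 0.23.

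The summed level of all chains was higher in HF than in NP. It ranged from 10910.1 to 12294 normalized counts in NP and from 12800 to 17180.2 in HF, with 9634 to 13854 in LP and 10744 to 13023 in HF + LP. All 5 HF mice lay above all NP mice. Fibrillar chains summed to 3720.1 to 4751 in NP and 4485 to 7365 in HF, with overlap. Basement membrane chains summed to 3767 to 4485 in NP and 4485 to 6214 in HF, where the highest NP mouse and the lowest HF mouse were level. As shares of collagen counts, Col3a1 took 8.91% ± 0.518 in NP and 12.7% ± 1.8 in HF (SD, n = 5), whereas Col1a1 took 8.5% ± 1.58 and 8.59% ± 1.06. Counts from genes encoded in mitochondrial DNA averaged 43.2% of an NP library, 40.3% of an LP library, 38.7% of an HF library, and 43.3% of an HF + LP library, and without them collagen counts still ranged from 0.106% to 0.124% in NP and from 0.125% to 0.18% in HF.

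HF + LP was compared to HF to ask what low protein did on the high-fat diet. Most collagen chains were lower in HF + LP than in HF. The log2 fold change was below 0 for 21 of 26 chains, with a median of -0.23 against 0.017 over all genes tested. An unadjusted p under 0.05 was found for 7 chains, all lower (26.9%), against 4.84% of all genes, although edgeR called no chain and no gene of the genome (0%). By edgeR 677 genes had an unadjusted p under 0.05. DESeq2 called 0 collagen chains and 16 genes. The chains were Col1a1, Col3a1, Col4a1, Col8a1, Col8a2, Col14a1, and Col16a1. This comparison uses the same HF mice as the comparison of HF to NP, so the chains high in HF there can be low here through the same values.

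The 7 chains span all classes. Col3a1 was lower by a log2 fold change of -0.55 (SE 0.19, edgeR adjusted p = 0.577), and 3 of the 5 HF + LP mice were under the lowest HF mouse. Col1a1 had a log2 fold change of -0.49 (SE 0.23), with 4 HF + LP mice under the lowest HF mouse and a mean of 922 ± 87.4 against 1290.2 ± 306. Col4a1 had -0.31 (SE 0.14), Col14a1 -0.74 (SE 0.30), and Col8a1 -0.48 (SE 0.22). Col16a1, a FACIT, had normalized counts of 148, 159, 163, 169, and 193 in HF mice and 90.6, 118, 122, 133, and 145 in HF + LP mice. Every HF + LP mouse lay below every HF mouse, with a log2 fold change of -0.45 (SE 0.17, edgeR adjusted p = 0.757). Col8a2, a low-count chain, had 9.22, 11.5, 14.8, 15.3, and 17.6 in HF mice and 2.08, 4.12, 4.48, 9.51, and 9.62 in HF + LP mice, with a log2 fold change of -1.18 (SE 0.50, edgeR adjusted p = 0.857).

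The groups did not overlap for 3 chains, all lower in HF + LP, while 1.18% of all genes tested did not overlap. These were Col16a1, Col5a1, and Col6a2. Col5a1 had 272, 294, 352, 360.0, and 375 in HF + LP mice, each under the lowest HF mouse, with a log2 fold change of -0.25 (SE 0.14). Col6a2 had 418, 486, 494, 527, and 539 in HF + LP mice and -0.20 (SE 0.13). Of the basement membrane pair, Col4a2 had a log2 fold change of -0.08 (SE 0.15) and its values spread from 1630.2 to 2662 in HF + LP. The chains above 0 were Col4a6, Col5a3, Col6a6, Col23a1, and Col27a1, with log2 fold changes up to 0.33. Leaving out 1 mouse at a time gave 3 to 10 chains with an unadjusted p under 0.05, with 3 when HF mouse 4 or HF + LP mouse 1, 4, or 5 was left out, 4 without HF mouse 5, and 10 without LP mouse 13.

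**Figure D4:**
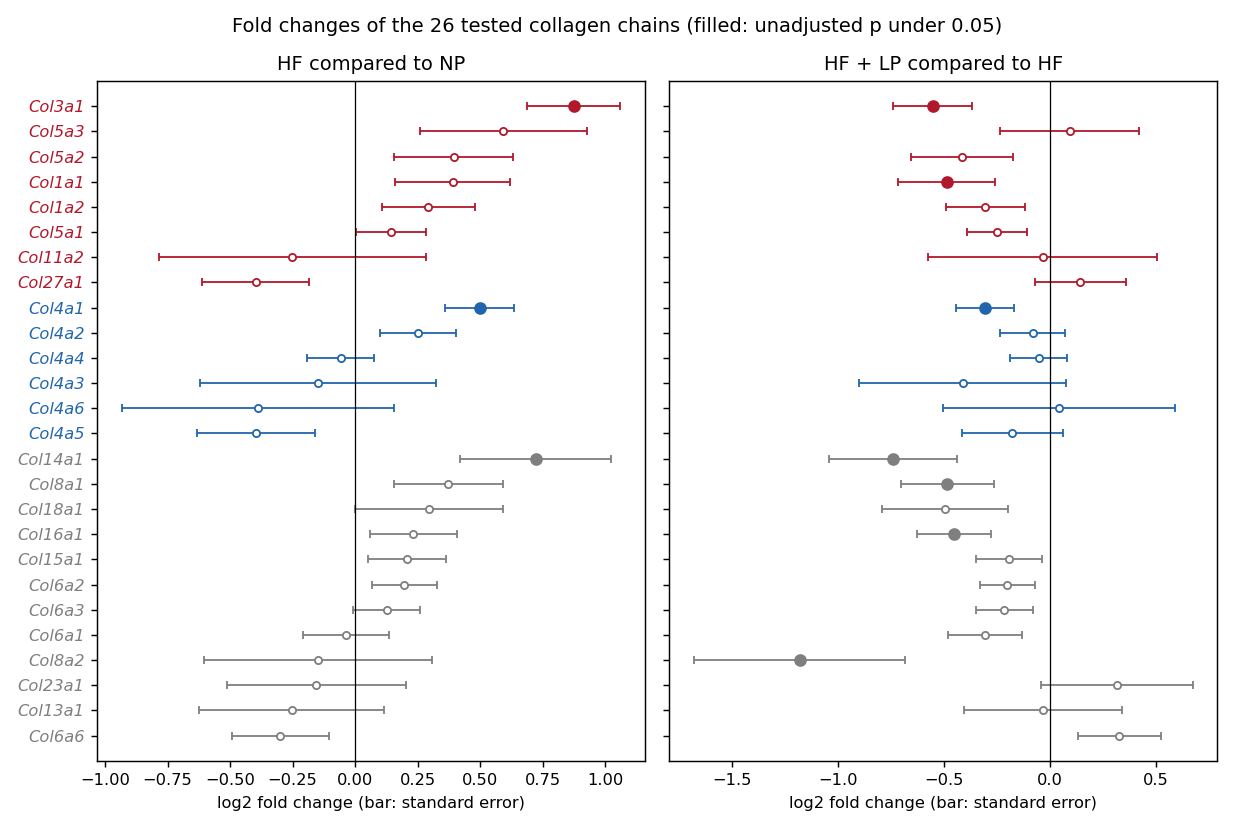
Log2 fold change of the 26 tested collagen chains from HF compared to NP (left) and HF + LP compared to HF (right), with bars for the standard error and filled points where the unadjusted p was under 0.05. Filled points number 3 on the left, all above 0, and 7 on the right, all below 0, and both panels share the HF mice.

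LP was compared to NP to ask what low protein did without the high-fat diet. By edgeR no collagen chain was called, as for all genes (0%), and 0 chains had an unadjusted p under 0.05, against 7.23% of all genes. DESeq2 called no collagen chain and 4 genes. The log2 fold change was above 0 for 14 chains and below 0 for 12, with a median of 0.022 against 0.023 over all genes. No chain was without overlap between the groups, as were 0.786% of all genes. The smallest adjusted p was 0.787, for Col27a1, with a log2 fold change of 0.36 (SE 0.21), and LP mouse 13 (269) lay above the other LP mice (80.0 to 155). Col18a1, with 0.49 (SE 0.29, edgeR adjusted p = 0.795), and Col13a1, with 0.49 (SE 0.36, edgeR adjusted p = 0.848), had their highest values of all 20 mice in the same mouse (181 and 60.4). Col8a1 was the reverse, since LP mouse 13 held its lowest value (154) and the other LP mice 357 to 396, with a log2 fold change of -0.34 (SE 0.22, edgeR adjusted p = 0.815).
The next chain, Col14a1, had 0.37 (SE 0.30, edgeR adjusted p = 0.866). Without LP mouse 13 the median over 25 tested chains was -0.15 and 1 chain was lower at an unadjusted p under 0.05, and there was 1 higher chain without NP mouse 4 and 2 without LP mouse 5.

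HF + LP was compared to LP to ask what the high-fat diet did at low protein. No chain was called, against 0.1% of all genes. Of all genes, 15.9% had an unadjusted p under 0.05 (876 higher and 1351 lower). At that threshold 5 chains were lower and 0 higher (19.2%), a share near the background when both directions are counted. These were Col27a1 with a log2 fold change of -0.61 (SE 0.21, edgeR adjusted p = 0.167), Col8a2 with -1.18 (SE 0.49, edgeR adjusted p = 0.248), Col18a1 with -0.69 (SE 0.29, edgeR adjusted p = 0.258), Col4a5 with -0.52 (SE 0.24, edgeR adjusted p = 0.292), and Col13a1 with -0.78 (SE 0.36, edgeR adjusted p = 0.302). Col18a1 had 40, 69.2, 76.8, 84.5, and 181 in LP mice and 47, 49, 51.5, 57.7, and 77 in HF + LP mice. Col4a5 had 65.7, 69.2, 69.6, 87, and 130.2 and 40.2, 47, 58.3, 69.4, and 80.8, and Col13a1 16.4, 17.9, 22.6, 30.3, and 60.4 and 11.8, 13.4, 14.6, 15.6, and 31.4. Col8a2 had 2.66, 8.21, 16.5, 17.6, and 22.7 in LP mice. The groups overlapped for all 5 chains, and LP mouse 13 was the highest of all 20 mice for each but Col8a2. None of the 5 had an unadjusted p under 0.05 without LP mouse 13, when Col27a1 had -0.29 (edgeR adjusted p = 0.426), Col8a2 -1.06 (edgeR adjusted p = 0.427), Col18a1 -0.25, Col4a5 -0.30, and Col13a1 -0.31. Without that mouse 1 chain was higher at an unadjusted p under 0.05 and 0 were lower, and the median over chains was 0.059 in place of -0.065. One at a time, 2 chains were lower at that threshold when LP mouse 15 or HF + LP mouse 4 or 5 was left out, 3 were lower without HF + LP mouse 2, and 2 were lower and 1 higher without HF + LP mouse 1. No chain was without overlap, as were 1.87% of all genes. The chains that stood out in HF compared to NP had 0.26 (SE 0.19) for Col3a1 and 0.18 (SE 0.14) for Col4a1 here, with normalized counts of Col3a1 that overlapped between LP and HF + LP.

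Over both protein levels the high-fat diet had no called chain by edgeR, against 1% of all genes, and 5 chains with an unadjusted p under 0.05 (19.2%), against 20.8%. Those higher were Col3a1, with a log2 fold change of 0.57 (SE 0.13, edgeR adjusted p = 0.0172), Col4a1, with 0.34 (SE 0.10), and Col4a2, with 0.25 (SE 0.11). Those lower were Col27a1, with -0.50 (SE 0.15), and Col4a5, with -0.46 (SE 0.17). DESeq2 called Col3a1 (adjusted p = 0.00172), as did edgeR without LP mouse 13 (adjusted p = 0.00346), and edgeR without LP mouse 5 called Col27a1. The count of 5 became 8 without LP mouse 2 or 13, HF mouse 2 or 3, or HF + LP mouse 3, and 9 without LP mouse 5. Over both fat levels low protein had no called chain by edgeR, as for all genes (0%), while DESeq2 called no chain and 1 gene. It had 1 chain with an unadjusted p under 0.05 against 5.47% of all genes, Col8a1 with -0.41 (SE 0.15, edgeR adjusted p = 0.794). That count was 10 without LP mouse 13, all lower, 4 without HF + LP mouse 3, 3 without LP mouse 15 or HF mouse 2, and 2 without NP mouse 5 or 8, LP mouse 5, or HF + LP mouse 2.

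The interaction of fat and protein tests whether the effect of low protein differed between the fat levels. By edgeR no chain was called, as for all genes (0%), while DESeq2 called no chain and 1 gene. By edgeR 3 chains had an unadjusted p under 0.05 (11.5%), against 7.17% of all genes. They were Col14a1, with a log2 interaction of -1.10 (SE 0.43, edgeR adjusted p = 0.683), Col18a1, with -0.99 (SE 0.42, edgeR adjusted p = 0.684), and Col3a1, with -0.62 (SE 0.26, edgeR adjusted p = 0.684). The estimate was below 0 for 23 of 26 chains and for all 8 fibrillar chains, with a median of -0.23 against -0.0060 over all genes. Without LP mouse 13 the values were -0.68 for Col14a1, -0.55 for Col18a1, and -0.45 for Col3a1, none of the chains had an unadjusted p under 0.05, and the median was -0.085. Without NP mouse 4 or LP mouse 5 or 20, 5 chains did.

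Pairs of chains, some of one molecule and some of different molecules, were compared across mice within diets, as deviations of log2 CPM (depth-scaled counts on a log2 scale) from the mean of the diet, over 20 mice and 7 pairs, with 100000 permutations within diets and Benjamini-Hochberg adjustment over the pairs. Col4a1 and Col4a2, which share the 22 bases shown above, varied together (Pearson r = 0.59, adjusted permutation p = 0.0169, and Spearman rho = 0.63, adjusted permutation p = 0.0227). Without the 2 mice farthest from the median of Col4a1, r was 0.59 (adjusted permutation p = 0.0397). Without LP mouse 13, r was 0.57 (adjusted permutation p = 0.0441) and rho was 0.61 (adjusted permutation p = 0.0617). The correlation of Col4a1 and Col4a2 within diets also missed an adjusted p of 0.05 when LP mouse 2, 15, or 20 was left out (r = 0.50, 0.58, and 0.51, adjusted permutation p = 0.0523, 0.0502, and 0.0627). Col1a1 and Col3a1, chains of different molecules, had r = 0.73 (adjusted permutation p = 0.0077) and rho = 0.62 (adjusted permutation p = 0.0235). Without the 2 mice farthest from the median of Col1a1, r was 0.47 (adjusted permutation p = 0.178) and rho was 0.48 (adjusted permutation p = 0.158), so the direction was kept and the adjusted call was lost with 18 mice. Without LP mouse 13, r was 0.60 (adjusted permutation p = 0.0441) and rho was 0.51 (adjusted permutation p = 0.127).

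Col1a1 and Col1a2, which encode the chains of the same type I molecule, had r = 0.096 (adjusted permutation p = 0.773) and rho = 0.039 (adjusted permutation p = 0.868). No relation was detected, and r was -0.15 without the 2 farthest mice (adjusted permutation p = 0.577). Col6a1 and Col6a2 had r = 0.71 (adjusted permutation p = 0.111) and rho = 0.51 (adjusted permutation p = 0.192), and 0.54 without the 2 farthest mice. Col5a1 and Col5a2 had r = 0.40 (adjusted permutation p = 0.161) and rho = 0.35, and Col15a1 and Col18a1 had r = 0.40 (adjusted permutation p = 0.221) and rho = 0.29, and without LP mouse 13 r was 0.17 and 0.051. Col1a1 and Col4a1, of the fibrillar and basement membrane classes, had r = 0.059 (adjusted permutation p = 0.872) and rho = 0.15, and r was 0.37 without LP mouse 13 (adjusted permutation p = 0.342).

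**Figure D5:**
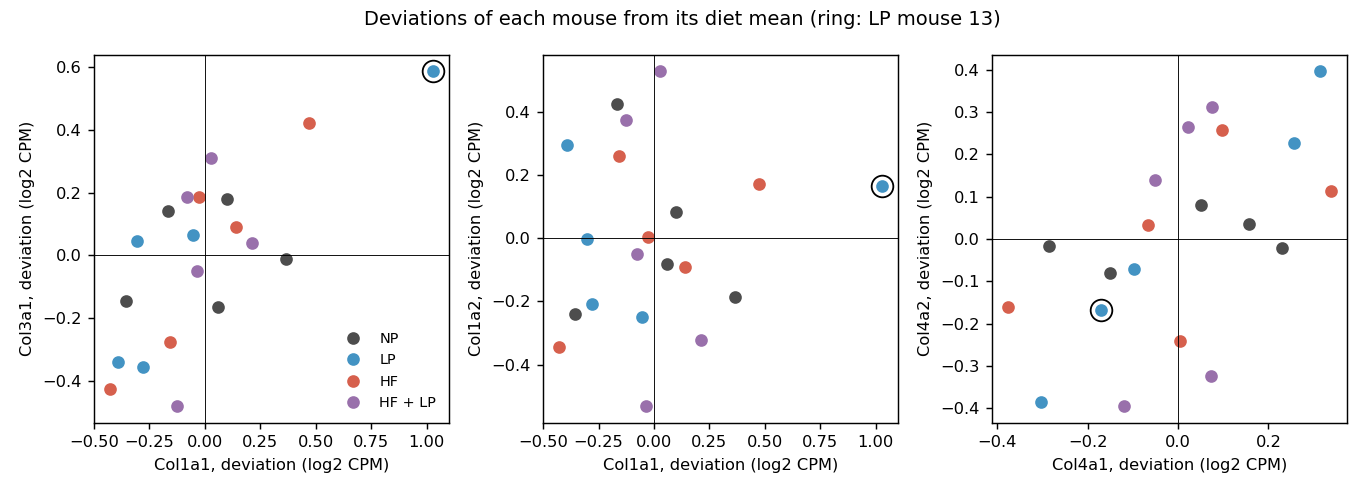
Deviation of each of the 20 mice from its diet mean (log2 CPM) for Col1a1 and Col3a1, Col1a1 and Col1a2, and Col4a1 and Col4a2, colored by diet, with a ring around LP mouse 13. Pearson r is 0.73, 0.096, and 0.59, and the ringed mouse is the farthest right for Col1a1.

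A collagen chain needs enzymes to fold it, trim it, and link it, and genes of these steps were read from lists. In HF compared to NP edgeR called none of them. Of the 20 tested genes of hydroxylation and folding, 3 were higher at an unadjusted p under 0.05 and 0 lower, led by P4ha1, a prolyl hydroxylase subunit, with a log2 fold change of 0.50 (SE 0.12, edgeR adjusted p = 0.0364). Its normalized counts were 255, 256, 273, 294, and 307 in NP mice and 351, 359, 374, 401, and 467 in HF mice, without overlap. Ppib, a folding enzyme, had 0.35 (SE 0.10), and Plod3, a lysyl hydroxylase, 0.22 (SE 0.10). Of 5 processing genes, 2 were higher, Adamts2, which removes the amino-terminal propeptide, with 0.61 (SE 0.16), and Pcolce, an enhancer of carboxy-terminal cleavage, with 0.37 (SE 0.16). Of 5 crosslinking genes, 3 were higher and all 5 had a log2 fold change above 0, with Loxl1 at 0.58 (SE 0.15, edgeR adjusted p = 0.0572), Loxl2 at 0.58 (SE 0.23), and Lox at 0.66 (SE 0.30). Loxl1 had normalized counts of 423, 433, 438, 511, and 554 in NP mice and 646, 688, 695, 726, and 761 in HF mice, without overlap.

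Proteins that bind collagen, cells that sense it, and enzymes that degrade it were mixed. Of 12 fibril-binding genes, 2 were higher and 1 lower in HF compared to NP. Sparc, which binds collagen outside the cell, had 4166, 4689, 4731, 4769, and 5623 in NP mice and 6072, 6563, 7024, 7394, and 7729 in HF mice, without overlap and with a log2 fold change of 0.54 (SE 0.11, edgeR adjusted p = 0.017). Aspn had 0.32 (SE 0.13), and Tnxb, a tenascin, was lower, with -0.70 (SE 0.17, edgeR adjusted p = 0.0467). Of 14 basement membrane partners, 0 were higher and 4 lower, Lamb2 with -0.65 (SE 0.13, edgeR adjusted p = 0.0172), Lama5 with -0.73 (SE 0.17), Lama2 with -0.36 (SE 0.11), and Hspg2 with -0.55 (SE 0.17). Lamb2, a laminin chain, had 2978, 3085, 3358, 3447, and 3487 in NP mice and 1749.8, 1905, 2107, 2342, and 2356 in HF mice. Every HF mouse lay below every NP mouse for Lamb2, while 4 of the same 5 mice lay above all NP mice for Col4a1.

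Of 10 receptors, 1 was higher, Cd44, a hyaluronan receptor that also binds collagen, with 0.86 (SE 0.17, edgeR adjusted p = 0.014). Of 10 genes of collagen breakdown, 3 were higher and 1 lower. Mmp14, a membrane-bound collagenase, had normalized counts of 164, 174, 196, 231, and 281 in NP mice and 283, 380.1, 442, 446, and 454 in HF mice, without overlap and with a log2 fold change of 0.94 (SE 0.18, edgeR adjusted p = 0.014). Mmp2 had 0.36 (SE 0.11), Timp2, an inhibitor of these enzymes, 0.49 (SE 0.19), and Mmp15 -0.27 (SE 0.12). Of 17 genes of TGF-beta signaling, a pathway known to raise collagen transcription, 1 was higher, Skil with 0.33 (SE 0.16), and 2 were lower, Ltbp1 with -0.51 (SE 0.20) and Tgfbr3 with -0.39 (SE 0.18). These shares are read against the 13.1% of all genes with an unadjusted p under 0.05 in this comparison. Averaged over protein, edgeR called 1% of all genes for the high-fat diet, and 3 genes in these lists. P4ha1 was 1 of 20 genes of hydroxylation and folding (0.49, adjusted p = 0.00188) and Sparc 1 of 12 fibril-binding genes (0.46, adjusted p = 0.00181), both higher, and Lamb2 was 1 of 14 basement membrane partners (-0.52, adjusted p = 0.00311), lower.

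In HF + LP compared to HF the lists are read against the 4.84% of all genes with an unadjusted p under 0.05, and edgeR called none of their genes. Adamts2 had -0.46 (SE 0.16) and Pcolce -0.35 (SE 0.16) among 5 processing genes, and Lox -0.66 (SE 0.30) and Loxl3 -0.58 (SE 0.26) among 5 crosslinking genes. Of 12 fibril-binding genes 3 were lower, Sparc with -0.32 (SE 0.11), Thbs2 with -0.40 (SE 0.16), and Bgn with -0.43 (SE 0.18). Of 20 genes of hydroxylation and folding, 0 had an unadjusted p under 0.05. Of 10 genes of breakdown, Mmp13 and Mmp2 were lower, with -1.45 (SE 0.42) and -0.31 (SE 0.11), and Mmp9 was higher, with 1.47 (SE 0.45). Mmp9 had 13.2, 20.3, 29.9, 37.6, and 50.6 in HF mice and 27.8, 32.3, 54.2, 149, and 167 in HF + LP mice, so the groups overlapped, and HF + LP mice 4 and 5 had the 2 highest values. Among 14 basement membrane partners only Agrn was lower at this threshold, with -0.34 (SE 0.14), among 10 receptors only Lair1, with -0.58 (SE 0.26), and among 17 TGF-beta genes only Ltbp2, with -0.86 (SE 0.31).
In LP compared to NP, where 7.23% of all genes had an unadjusted p under 0.05, the lists held 0 to 2 such genes each, among them Mmp14 with 0.53 (SE 0.18), Cd44 with 0.53 (SE 0.17), and Agrn with -0.45 (SE 0.14). In HF + LP compared to LP, where 15.9% of all genes did, they included P4ha1 with 0.49 (SE 0.12), Sparc with 0.39 (SE 0.11), and Lamb2 with -0.39 (SE 0.13).

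Markers of the cells that make collagen were read in the same libraries. The 12 fibroblast markers summed to 28864 to 36724 normalized counts in NP and 30384 to 41579 in HF, with 25505 to 36282 in LP and 27620.0 to 35283 in HF + LP, so all groups overlapped. Most of each sum came from Dcn and Gsn, so the sums mainly describe these genes. In HF compared to NP 11 of the 12 had a log2 fold change above 0, and Cd248, Mfap5, and Smoc2 passed an unadjusted p of 0.05. In HF + LP compared to HF 1 fibroblast marker was above 0 and 11 were below 0 (median -0.24), with 2 lower at an unadjusted p under 0.05. The 8 listed markers of activated fibroblasts summed to 783 to 1207 in NP and 979 to 1511 in HF, with 792 to 997 in LP and 491 to 1029 in HF + LP. Of the 7 tested, 5 had a fold change of HF to NP above 0 and 2 below 0, with 3 higher at an unadjusted p under 0.05, against 13.1% of all genes. Meox1, a transcription factor of activated fibroblasts, had 138, 154, 156, 164, and 184 in NP mice and 242, 258, 259, 307, and 338 in HF mice, with a log2 fold change of 0.82 (SE 0.17, edgeR adjusted p = 0.0203). Fap, a surface protease of activated fibroblasts, had the lowest log2 fold change of the list, -0.43 (SE 0.22, edgeR adjusted p = 0.438), with 41.8, 47.2, 60.5, 67.1, and 68 in NP mice and 30.8, 36.1, 45.8, 47.4, and 52.4 in HF mice, which overlapped. For the high-fat diet averaged over protein, 3 of the 7 had a fold change above 0 and 4 below 0, with a median of -0.037, and edgeR called 1, Meox1 (0.65, adjusted p = 0.00441), against 1% of all genes. In HF + LP compared to HF all 7 had a fold change below 0, 4 of them with an unadjusted p under 0.05, against 4.84% of all genes. Cilp and Postn, matricellular genes, were lower in HF + LP than in HF, with log2 fold changes of -1.29 (SE 0.22, edgeR adjusted p = 0.0841) and -0.89 (SE 0.21, edgeR adjusted p = 0.217). Cilp had 264, 265, 281, 332, and 425 in HF mice and 89.7, 104, 133, 138, and 174 in HF + LP mice, and Postn 268, 299, 321, 414, and 419.5 and 109, 146, 181, 243, and 247, both without overlap. The part of these cells in the collagen values was not tested.

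Markers of other cell types were compared in the same libraries, where edgeR called none of the markers named here in HF compared to NP and 13.1% of all genes had an unadjusted p under 0.05. Cardiomyocyte markers, which define the labelled tissue, summed to at least 638741 normalized counts in every mouse. The 8 macrophage markers summed to 3753 to 5134 in NP and 5192 to 7070.1 in HF, without overlap, to 2764 to 7433 in LP, and to 3640 to 5107 in HF + LP, and all 8 had a log2 fold change of HF to NP above 0 (median 0.42), 3 of them with an unadjusted p under 0.05, with C1qb at 0.58 (SE 0.19, edgeR adjusted p = 0.13) and Cd68 at 0.60 (SE 0.19, edgeR adjusted p = 0.134). The 12 endothelial markers summed to 15469 to 17196 in NP and 16030.1 to 20114 in HF. Of these 9 had a fold change above 0 and 3 below 0 (median 0.19), and only Cldn5 had an unadjusted p under 0.05, with 0.81 (SE 0.35, edgeR adjusted p = 0.31). All 10 cardiomyocyte markers had a fold change of HF to NP below 0 (median -0.24), 5 of them with an unadjusted p under 0.05, with Myh6 at -0.70 (SE 0.13, edgeR adjusted p = 0.0124). Of the 11 pericyte and smooth muscle markers 9 had a fold change below 0, 5 of them with an unadjusted p under 0.05, with Myh11 at -1.39 (SE 0.32, edgeR adjusted p = 0.0341). Averaged over protein, where 1% of all genes were called, 1 of 10 cardiomyocyte markers and 2 of 11 pericyte and smooth muscle markers were called. Myh6, Myh11, and Notch3 were lower on the high-fat diet in that contrast, with edgeR adjusted p of 0.00252, 0.000572, and 0.00546. In HF + LP compared to HF, 0 of 8 macrophage markers and 9 of 10 cardiomyocyte markers had a fold change above 0 (medians -0.39 and 0.17). Of these, 1 macrophage marker and 0 cardiomyocyte markers had an unadjusted p under 0.05. The counts above 0 were 5 of 12 for endothelial markers and 7 of 11 for pericyte and smooth muscle markers. Atrial cardiomyocyte markers summed to 2628 to 61060.3 in NP and 1938 to 206396 in HF, with 2258 to 251380 in LP and 1022 to 88042 in HF + LP. Adipocyte markers summed to 23.6 to 821 in NP and 8.8 to 1161 in HF, with 80.0 to 5159 in LP and 12.3 to 191 in HF + LP. Schwann cell, mesothelial, and valve and cartilage markers overlapped between HF and NP in their sums, with lowest and highest values of 675 and 917.7 in NP and 788 and 1065 in HF for Schwann cells, 184 and 303 in NP and 169.8 and 392 in HF for mesothelium, and 376 and 834 in NP and 395 and 714 in HF for valve and cartilage. The part of any of these in the collagen values was not tested.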

How the data were processed

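Left ventricular RNA of 20 mice was sequenced by QuantSeq 3′ mRNA sequencing, and the diet in the labels gave 4 groups of 5. The authors deposited 1 table of raw read counts per gene, not normalized, and the submitters' processing notes name GRCm38 and DESeq2 1.22.2. The study's methods name BlueBee software for alignment, and the counting settings and whether counting used the strand were not given in the sources used here. The table lists 15956 genes with a total of at least 60 counts each, and library totals ranged from 12559607 to 23331907, so precision is lowest for chains with base means under 50.

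Counts were tested in R 4.3.3 with edgeR 4.0.16 (TMM scaling, filterByExpr by diet, and the quasi-likelihood test on all 20 mice, which share 1 estimate of the spread). Calls needed an adjusted p (Benjamini-Hochberg, over 13991 genes) under 0.01 and a base mean over 50. DESeq2 1.42.0, other scalings and filters, covariates, and leaving out each mouse were tried as alternatives. Library names carry a library number that was spread unevenly over the diets, and the labels do not give its meaning. With it as a covariate, edgeR gave 3 chains with an unadjusted p under 0.05 for HF compared to NP and 7 for HF + LP compared to HF. The p-values set differences between group means against the spread between these mice, which was estimated over all diets together. Coordinates come from the GENCODE annotation of GRCm38 and promoter sequences from RefSeq.

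The members and gene lists were chosen with earlier results of these data known. Chains were named by rule, namely those called anywhere, the 5 of smallest p in each of the 4 comparisons of diets and the 3 of smallest p in the averaged and interaction contrasts, and the principal collagens of the heart. From each list, genes called were named, with up to 3 of smallest p per comparison (none for the Schwann cell, mesothelial, adipocyte, atrial, and valve lists, which are given by their sums), and further genes with an unadjusted p under 0.05 were named after their values were seen.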

Additional observations from a re-analysis of the deposited data

Results flagged for a closer look

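In 104 groups of 5 mice (26 tested chains in 4 diets), 7 values, from 4 mice, lay apart from the rest of their group by Dixon's test (critical value 0.71), and chance alone flags about 1 in 20 groups. LP mouse 13 gave 4 of the 7. Its normalized count of Col1a1 was 2021, against 754 to 954 in the other LP mice, that of Col5a2 was 303, against 162 to 198, and that of Col6a6 was 87.4, against 55.2 to 59.5. Its Col8a1 count was 154, below the 357 to 396 of the other LP mice.

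NP mouse 4 had a Col5a2 count of 291, against 168 to 200.2 in the other NP mice. HF mouse 2 had a Col15a1 count of 648, below the 938 to 1008 of the other HF mice. HF + LP mouse 3 had a Col13a1 count of 31.4, against 11.8 to 15.6 in the other HF + LP mice.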

How the results depend on the processing

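For HF compared to NP, DESeq2 and an adjusted p under 0.05 each called 1 chain (Col3a1), and DESeq2 on only these 2 groups, chosen after seeing the data, called 2. With only these 2 groups 10 chains had an unadjusted p under 0.05, and 9 with DESeq2. For HF + LP compared to HF, DESeq2 on 2 groups gave 11. For HF + LP compared to LP the count was 3 with at least 10 counts in every library, 2 with library number as a covariate, and 1 with only the 2 groups, also with DESeq2. Averaged over protein, DESeq2 and an adjusted p under 0.05 each called 1 chain for fat. The labels do not say whether the animal numbers pair mice of different diets. Deviations of HF and HF + LP mice with the same number had a mean correlation of -0.038 (-0.553 to 0.476), too wide a range to tell. For the other pairs of diets the mean ran from -0.236 (NP and HF) to 0.208 (NP and LP, with 1 shared number). The replicate block fits exactly each mouse whose number occurs in no other group, namely NP mice 6 and 8 and LP mice 13, 15, and 20. Those mice add nothing to its fold changes. With that block, the count was 2 and the median -0.24 for LP compared to NP. The count was 1 for HF + LP compared to LP (higher, where the 5 were lower, with a median of 0.057), 3 for fat, and 9 for protein. Col18a1 then turned to 0.075 in HF + LP compared to LP and to 0.029 in the interaction. Without the 2 farthest mice the correlation of Col1a1 and Col1a2 turned to -0.15 and that of Col1a1 and Col3a1 was 0.47. Leaving out 1 mouse at a time gave 0 to 1 called chain for HF compared to NP and for fat. Counts at an unadjusted p under 0.05 were then 2 to 6 for HF compared to NP, 3 to 10 for HF + LP compared to HF, 0 to 2 for LP compared to NP, 1 to 7 for HF + LP compared to LP, 4 to 9 for fat, 1 to 10 for protein, and 0 to 5 for the interaction. Correlations were then -0.032 to 0.19 for Col1a1 and Col1a2, 0.17 to 0.54 for Col5a1 and Col5a2, 0.50 to 0.67 for Col4a1 and Col4a2, and -0.11 to 0.37 for Col1a1 and Col4a1. The causes of these changes were not tested.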
